A study of Gallus gallus with 32 samples.

Results

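Glutamate, GABA and glycine carry most of the fast signalling between nerve cells, and their receptors are described here by the abundance of the messenger RNAs that encode them. The 40 genes were those of the deposited count table whose symbol names a subunit or receptor of these transmitters and whose mean count over the 32 libraries was at least 10. All 40 genes with such a symbol passed this minimum, out of 24881 genes in the table, of which 10132 had a symbol. They comprised 4 AMPA, 4 kainate, 5 NMDA, 2 delta and 6 metabotropic glutamate receptor genes, 11 GABA-A, 2 GABA-A rho and 1 GABA-B genes, and 5 glycine receptor genes. The rule used symbols and mean counts only, not any comparison between groups, although it was set with earlier results of these data known.

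The libraries came from the hypothalamus and the pituitary gland of 16 male Ross 308 chickens, a commercial hybrid kept for meat. Birds were of high growth rate (HGR, labelled heavy) or low growth rate (LGR, labelled light) and were killed after the 3rd week (day 22) or the 6th week (day 42 in the labels), with 4 birds in each of the 4 groups and both tissues from each bird. A later day was given by the study for the older birds, and the sample titles number the 2 ages 14 and 28. The study asked whether growth rate is reflected in gene expression of the hypothalamus, and the 2 tissues and 2 ages allow the same question to be put to each. Feed was freely available to both growth rate classes and was withdrawn for some hours before slaughter. The feed went from starter to grower and finisher as the birds aged, so age and feed stage cannot be told apart. Lighter and heavier birds had been separated by body weight after the 2nd week. The weight classes were then housed apart, which means that effects of the pen and of growth rate cannot be told apart. RNA was taken from pieces of whole tissue, in which fewer cells of a type and less RNA per cell cannot be told apart.

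Receptors of 2 kinds occur in these families. AMPA, kainate, NMDA, GABA-A and glycine receptors are ion channels built from several subunits, whereas metabotropic glutamate and GABA-B receptors act through G proteins. Glutamate channels excite the cell, and GABA-A and glycine channels usually inhibit it. In the hypothalamus both kinds of input act on the neurons that control feeding and the release of pituitary hormones, and the endocrine cells of the anterior pituitary also carry some of these receptors.

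The total count ran from 13845756 to 17536175 in the hypothalamus libraries and from 14351918 to 18256297 in 15 of the pituitary libraries. The pituitary library of LGR replicate 4 at 3 weeks stood apart with 6231478 counts and a TMM factor of 0.685, and 21 of the 40 genes had their lowest pituitary value in it. The share of all genes lowest in that library was not computed. The tissue labels matched the markers: all 7 anterior pituitary markers tested, TSHB, CGA and FSHB among them, were called higher in the pituitary, and 8 of 10 hypothalamus markers, HCRT, PMCH and SIM1 among them, were lower there, the exceptions being POMC and SIX6. GH, PRL, LHB and POU1F1 were not named in the tables and were not analysed here. Values below are counts per 1000000 counts of the scaled library (CPM, 1 TMM scaling of all 32 libraries), which allow a gene to be compared between libraries but not 1 gene with another, because they are not divided by transcript length. The shallow library also differed in makeup. Its summed anterior pituitary markers were 65850 CPM, where the next highest pituitary library had 46000 CPM. Its summed thalamus markers were 39.6 CPM, where the next lowest had 87.5 CPM. Its summed neuron markers, at 817 CPM, lay within the pituitary range of 758 to 1112 CPM. The parts of depth and makeup in its values were not tested.

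The pituitary held less receptor messenger RNA than the hypothalamus for nearly the whole set. Of the 40 genes, 35 were lower in the pituitary and 1, GRIN3B, was higher (edgeR quasi-likelihood test over 16169 genes). The pairing of the tissues by bird was not used in this test. A gene was called where its adjusted p did not exceed 0.05 and its level differed 1.5-fold or more. Over all genes tested, 27.8% were called lower and 25.7% higher. Only 34 of the 40 passed the low-count filter in the pituitary alone. The rest entered this test through their hypothalamus counts, so they could only lie lower in the pituitary. The median log2 fold change of the 40 genes was -2.40, against 0.05 over all genes. Every pituitary library lay below every hypothalamus library for 34 of the 40 genes, which held for 18.5% of all genes, and GRIN3B was the only one of the 40 with every pituitary library above, which held for 13.1% of all genes.

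**Figure D1:**
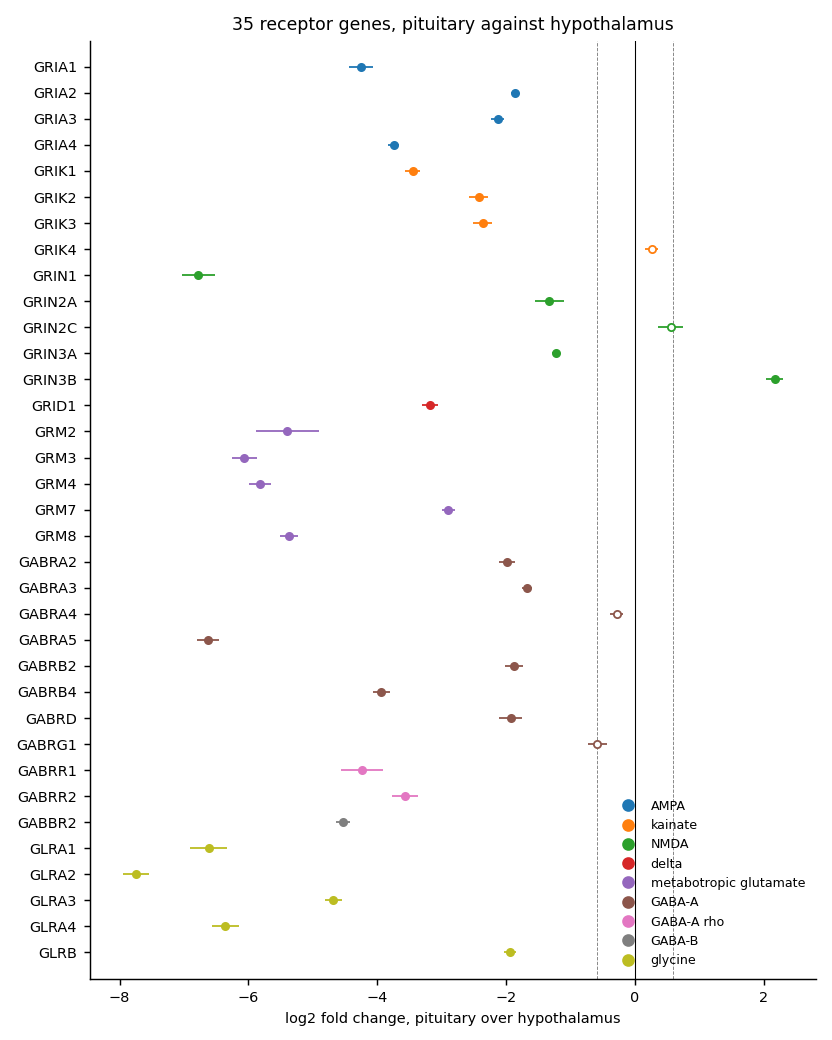
Log2 fold change of 35 of the 40 receptor genes in the pituitary over the hypothalamus (32 libraries), coloured by family. Bars give a standard error (SE) back-calculated from the test. Filled points passed the test, open points did not, and dashed lines mark a fold change of 1.5. Only GRIN3B is a filled point to the right of 0, and the 4 open points are GRIK4, GRIN2C, GABRA4 and GABRG1.

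The NMDA family showed the widest range. GRIN1, the subunit that every known NMDA receptor contains (chromosome 17, 1495117 to 1523559), ran from 364 to 536 CPM in the hypothalamus with a median of 502 CPM. In the pituitary it ran from 1.64 to 13.6 CPM with a median of 3.45 CPM. No library of one tissue came near those of the other, and the log2 fold change was -6.78 (SE 0.25, edgeR adjusted p = 5.39e-20). GRIN2A, a glutamate-binding subunit, was called lower with a log2 fold change of -1.33 (SE 0.23), although its pituitary values up to 3.76 CPM overlapped the hypothalamus values from 2.12 CPM upwards. GRIN3A, a glycine-binding subunit, was lower by less than GRIN1, with a log2 fold change of -1.23 (SE 0.06). It held 23.3 to 36.0 CPM in the pituitary and 58.4 to 82.8 CPM in the hypothalamus, with no overlap.

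GRIN3B, the close relative of GRIN3A (chromosome 28, 2909715 to 2914206), went the opposite way. It ran from 2.96 to 8.2 CPM in the pituitary with a median of 4.27 CPM, and from 0.34 to 1.68 CPM in the hypothalamus with a median of 0.96 CPM. The lowest pituitary library was therefore above the highest hypothalamus library, and the log2 fold change was 2.17 (SE 0.13, edgeR adjusted p = 5.74e-15). The read support was small, with 253 reads over the 16 hypothalamus libraries and 1122 over the 16 pituitary libraries. GRIN2C, a further glutamate-binding subunit, had a log2 fold change of 0.55 (SE 0.19) and did not reach a 1.5-fold change. Its pituitary values spread from 1.68 to 13.3 CPM around the hypothalamus values of 2.24 to 4.37 CPM.

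**Figure D2:**
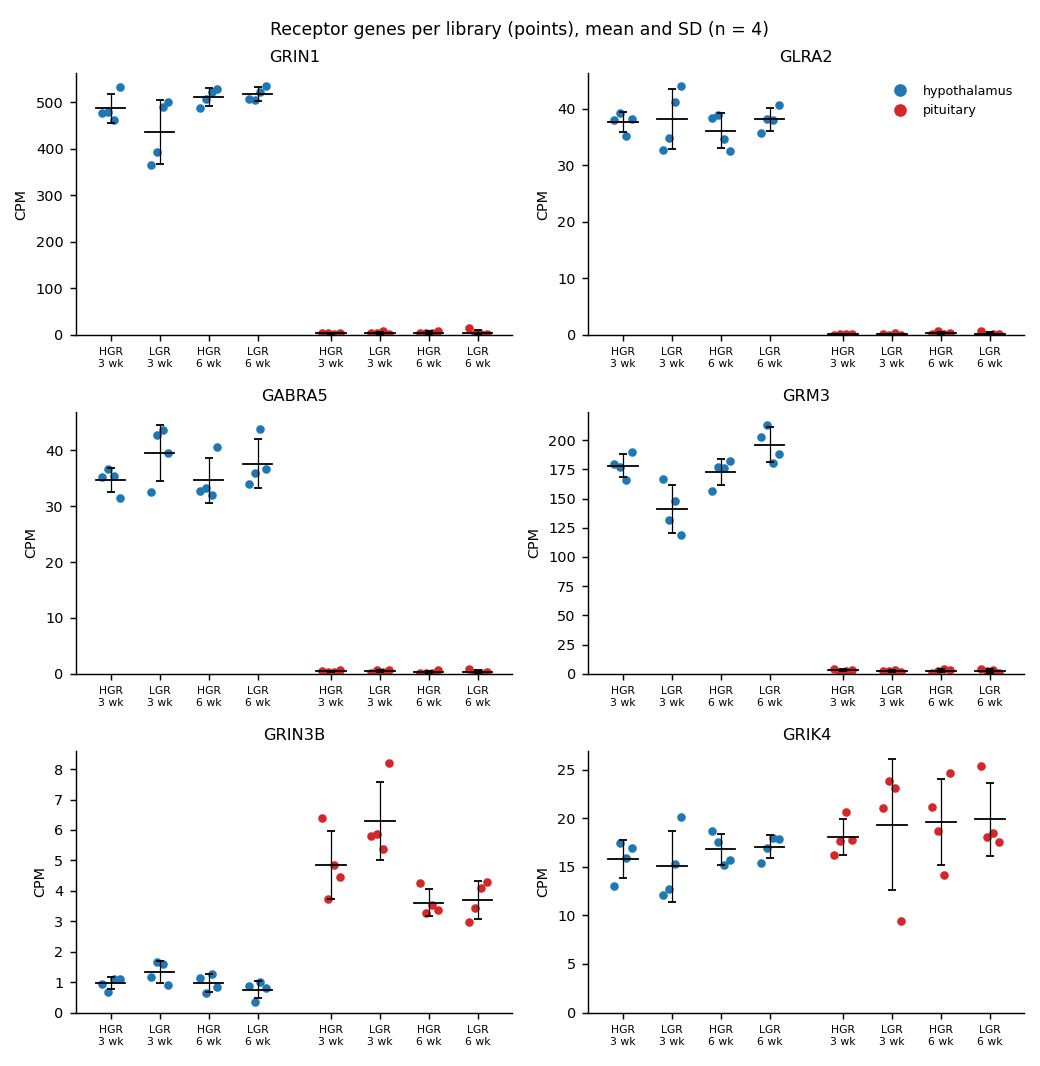
CPM of 6 receptor genes in each library (points) with the mean and SD of each group (bars, n = 4), hypothalamus in blue and pituitary in red. GRIN1, GLRA2, GABRA5 and GRM3 lie near 0 in every pituitary library, GRIN3B is higher in every pituitary library, and the tissues overlap for GRIK4.

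All 4 genes for AMPA receptors, which carry most fast excitation, were called lower in the pituitary. The log2 fold changes were -4.25 (SE 0.18) for GRIA1, -3.74 (SE 0.09) for GRIA4, -2.13 (SE 0.10) for GRIA3 and -1.87 (SE 0.05) for GRIA2, the subunit that limits calcium entry in mammals. GRIA2 remained at 47.8 to 70.5 CPM in the pituitary against 177 to 258 CPM in the hypothalamus, whereas GRIA1 went from 89.8 to 152 CPM in the hypothalamus to 1.64 to 11.96 CPM in the pituitary. The subunits of one receptor family thus differed in the size of the tissue difference.

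Among the kainate receptor genes, GRIK1, GRIK2 and GRIK3, whose products form channels on their own in mammals, were called lower with log2 fold changes of -3.45, -2.42 and -2.37. GRIK4, which in mammals needs one of those subunits as a partner, was not called, with a log2 fold change of 0.26 (SE 0.10). It ran from 9.38 to 25.4 CPM in the pituitary and from 12.1 to 20.1 CPM in the hypothalamus, and the tissues overlapped over most of that range. GRID1, a delta receptor gene, whose family binds cerebellins rather than acting as typical glutamate channels, was called lower with -3.18 (SE 0.13) on the log2 scale.

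All 6 metabotropic glutamate receptor genes were called lower in the pituitary, with a median log2 fold change of -5.38. GRM3, which lowers cyclic AMP (chromosome 1, 7655306 to 7725473), ran from 119 to 214 CPM in the hypothalamus and from 0.214 to 4.28 CPM in the pituitary (log2 fold change -6.06, SE 0.20). GRM4, GRM2 and GRM8, which couple to the same kind of G protein, had log2 fold changes of -5.82, -5.39 and -5.36. GRM7 of that class had -2.90 (SE 0.10) and held 3.05 to 14.2 CPM in the pituitary against 50.2 to 81.5 CPM in the hypothalamus.

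Of the 11 GABA-A genes, 9 were called lower in the pituitary and none higher, with a median log2 fold change of -1.93. GABRA5 (chromosome 1, 131309060 to 131362547), an alpha subunit found mostly outside synapses in mammals, stood far from GABRA2, GABRA3 and GABRA4. It ran from 31.6 to 43.9 CPM in the hypothalamus and from 0.06 to 0.88 CPM in the pituitary, where the 16 libraries held 93 reads in all (log2 fold change -6.63, SE 0.17, edgeR adjusted p = 1.46e-23). GABRA2 and GABRA3 had log2 fold changes of -1.99 and -1.67, and GABRA4 one of -0.28 (SE 0.10), which was not called. GABRA4 ran from 4.92 to 16.5 CPM in the pituitary and from 9.30 to 22.2 CPM in the hypothalamus.

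The beta subunit GABRB2 had a log2 fold change of -1.87, and GABRB4, a beta subunit known from birds, had -3.94 (SE 0.14). The delta subunit GABRD, part of receptors outside synapses, had -1.93. GABRG1, a gamma subunit, had -0.58 (SE 0.15, edgeR adjusted p = 0.000768), a fold change of 1.498 that fell just short of the minimum of 1.5. The genes GABRR1 and GABRR2 of the rho receptors, a class best known from the retina, were called lower with -4.24 and -3.58. GABBR2, the G protein-coupling subunit of the GABA-B receptor, had -4.53 (SE 0.10) and 1.17 to 3.44 CPM in the pituitary against 44.6 to 73.4 CPM in the hypothalamus.

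The 5 glycine receptor genes had the lowest family median, -6.36, although only 3 of the 5 passed the low-count filter in the pituitary alone. GLRA2, an alpha subunit (chromosome 1, 122392119 to 122516386), ran from 32.6 to 44.1 CPM in the hypothalamus. In the pituitary it ran from 0 to 0.60 CPM, with 48 reads over the 16 libraries and none in 4 of them, which gave the largest log2 fold change of the 40 genes, -7.75 (SE 0.20, edgeR adjusted p = 2.42e-23). The alpha subunits GLRA1, GLRA4 and GLRA3 had -6.62 (SE 0.29), -6.36 (SE 0.21) and -4.68 (SE 0.13). GLRA1 had 17 reads over the 16 pituitary libraries and ran there from 0 to 0.23 CPM, against 3.36 to 12.1 CPM in the hypothalamus.

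GLRA4 ran from 33.9 to 76.3 CPM in the hypothalamus and from 0.11 to 1.54 CPM in the pituitary. It lies inside the span of PHKA1 on chromosome 4 (1877762 to 2046754), and the sources used here do not state that strand was used in counting, so reads of those genes may not be fully separable. GLRB, the subunit that ties the receptor to its scaffold, differed far less than the alpha subunits, with a log2 fold change of -1.94 (SE 0.10). It held 6.80 to 26.9 CPM in the pituitary and 58.1 to 106 CPM in the hypothalamus.

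Many of these genes lie beside each other, and 16 of the 40 fell into 7 clusters of members less than 1 Mb apart by the deposited coordinates. Some neighbours on chromosome 4 differed in the size of the tissue difference and others were close. GABRB4 with a log2 fold change of -3.94 adjoined GABRA3 with -1.67, and GABRA2 with -1.99 lay between GABRA4 with -0.28 and GABRG1 with -0.58, whereas GLRB with -1.94 and GRIA2 with -1.87 were neighbours of like size.

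The partners of the receptors were lower in the pituitary as well. Of 19 genes for making and moving the transmitters, 15 were called lower and 0 higher, among them SLC32A1, which loads GABA and glycine into vesicles (log2 fold change -9.12), GAD2, which makes GABA (-7.96), and SLC6A9, a glycine transporter (-5.63). Of 30 scaffold and auxiliary genes, 21 were called lower and 2 higher, HOMER2 (0.62) and GRIP1 (0.72), a protein that binds AMPA receptors. GPHN, the scaffold of glycine and GABA-A receptors, was not called, with -0.15. All 7 neuron markers were called lower, with a median of -2.58 and a summed level of 758 to 1112 CPM in the pituitary against 3535 to 6825 CPM in the hypothalamus. The 5 oligodendrocyte and 6 astrocyte markers were also all called lower, and the part of cell type makeup in the receptor differences was not tested.

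Between 3 and 6 weeks the hypothalamus values of the receptor genes lay mostly above 0 on the log2 scale, by small amounts. None of the 40 genes was called by edgeR, where 0.623% of 15414 genes were called, and 2, GABRA4 among them, passed the adjusted p alone, where 2.31% of all genes did. At an unadjusted p under 0.05, 22 were higher and 1 lower at 6 weeks, against 12.8% and 11.4% of all genes. The log2 fold change was above 0 for 33 of the 40 genes, against 48.9% of all genes, with a median of 0.22 against -0.01 over all genes and a range from -0.40 to 0.84. The count at an unadjusted p under 0.05 was 11 in 1 fit over all 32 libraries, 24 with limma and 22 with DESeq2, which called GABRB2 and GRIN2A. Shares over all genes at an unadjusted p were not computed for these fits or for the other alternative fits below.

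**Figure D3:**
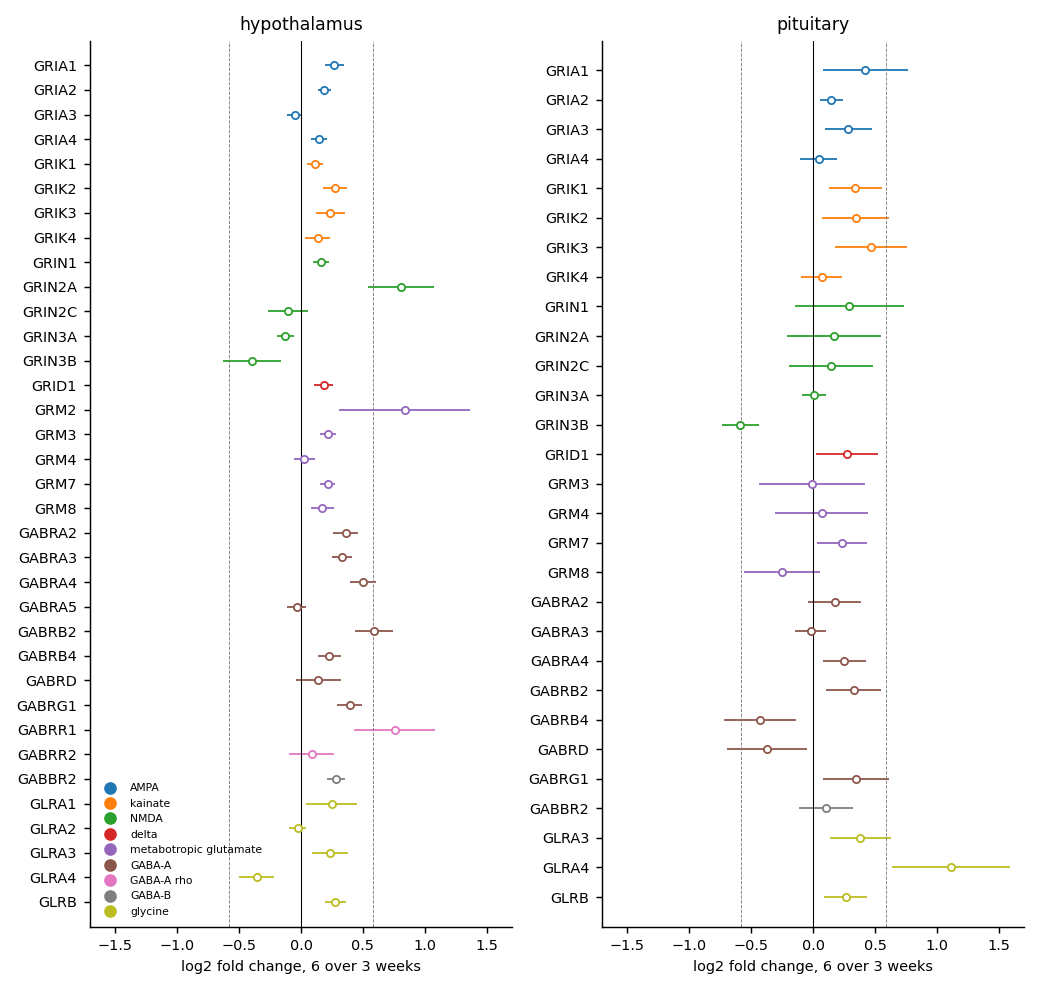
Log2 fold change at 6 over 3 weeks for 35 receptor genes in the hypothalamus and 29 in the pituitary (16 libraries each), coloured by family. Bars give a standard error back-calculated from the test. All points are open because none passed the test in edgeR, and 28 of 35 hypothalamus points and 23 of 29 pituitary points lie to the right of 0.

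GABRA4, an alpha subunit of GABA-A receptors, had the lowest p. It ran from 9.30 to 16.5 CPM with a median of 13.0 CPM in the 8 libraries at 3 weeks, and from 16.4 to 22.2 CPM with a median of 17.7 CPM in the 8 at 6 weeks. The ages met only at their edges, and the log2 fold change was 0.50 (SE 0.11, edgeR adjusted p = 0.0332), a fold change of 1.41. The adjusted p of GABRA4 went above 0.05 in 6 of the 16 fits that left out 1 library, namely without HGR replicate 2 of 3 weeks (0.0738) and without HGR replicates 2, 3 and 4 (0.0689, 0.0557 and 0.0816) or LGR replicates 2 and 4 (0.0658 and 0.0513) of 6 weeks. GABRA3 had 0.33 (SE 0.08, edgeR adjusted p = 0.0501).

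By family, 8 of 11 GABA-A genes were higher at 6 weeks at an unadjusted p under 0.05, with 10 of 11 above 0 and a median of 0.29. The corresponding counts were 3 of 4 for AMPA, 3 of 6 for metabotropic glutamate and 1 of 4 for kainate receptor genes. The NMDA family was mixed, with a median of -0.10, GRIN2A at 0.81 (SE 0.27) and GRIN3B at -0.40 (SE 0.24). GLRA4 was the 1 gene lower at an unadjusted p under 0.05, with -0.36 (SE 0.14, edgeR adjusted p = 0.145), and ran from 34.0 to 76.3 CPM at 3 weeks and 33.9 to 54.5 CPM at 6 weeks.

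Some other lists moved in the same comparison and others moved little. Of the 19 genes for making and moving transmitters, 12 were higher and 1 lower at an unadjusted p under 0.05, and SLC1A2, the main glial glutamate transporter, was called higher with a log2 fold change of 0.79 (SE 0.19, edgeR adjusted p = 0.0468). Of the 7 neuron markers 3 were higher at that threshold, with a median of 0.21, and of the 6 astrocyte markers 4, with a median of 0.32. Of the 6 anterior pituitary markers tested 4 were lower, with a median of -1.13, and their summed level was 56.8 to 643 CPM in the 3-week libraries and 29.6 to 364 CPM in the 6-week libraries. Among the 10 hypothalamus markers, 4 were lower and 1 higher at that threshold, with a median of -0.27, and 1 was called in each direction. The 4 cerebellum or telencephalon markers split into 2 higher and 2 lower, with 1 called higher. HBAD, an erythrocyte gene, was called lower with -2.38. Of the 30 scaffold and auxiliary genes, 6 were higher and 1 lower at an unadjusted p under 0.05, with a median of 0.10. Of the 7 thalamus markers 1 was higher, as was 1 of the 4 endothelium markers. None of the 5 oligodendrocyte, 5 microglia and 4 lymphocyte markers passed that threshold. The part of these markers in the receptor values was not tested.

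The mean CPM of the 6-week group over that of the 3-week group, taken within each growth rate, was above 1 for 29 of 40 genes in HGR and 32 of 40 in LGR birds, with a median log2 ratio of 0.12 and 0.32. The share over all genes was not computed for these ratios. The difference between the growth rates was tested as the interaction of age and growth rate, and no gene was called (0.00649% of all genes). At an unadjusted p under 0.05, 7 of the 40 were above 0 and 0 below, against 2.85% and 2.67% of all genes. GRM3 had the lowest p, with an interaction of 0.51 on the log2 scale (SE 0.13, edgeR adjusted p = 0.505). Its values were 166, 177, 179 and 190 CPM in HGR and 119, 132, 148 and 167 CPM in LGR birds at 3 weeks, and 156, 176, 177 and 182 CPM in HGR and 181, 188, 203 and 214 CPM in LGR birds at 6 weeks. LGR birds were thus mostly the lower group at 3 weeks, with 1 bird inside the HGR range, and at 6 weeks all but 1 lay above the HGR range. GRID1 and GRIK3 followed with 0.45 (SE 0.16) and 0.58 (SE 0.23), and DESeq2 and limma called none. The count of 7 was 3 without HGR replicate 3 or 4 or LGR replicate 1 or 4 of 3 weeks, 4 without HGR replicate 2 of 3 weeks or HGR replicate 1 of 6 weeks, and 11 without HGR replicate 1 of 3 weeks.

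In the pituitary 34 of the 40 genes passed the filter on low counts, and none was called between 3 and 6 weeks by edgeR, DESeq2 or limma, where edgeR called 0.0262% of all genes. At an unadjusted p under 0.05, 1 of the 34 was higher and 1 lower, against 10.6% of all genes in either direction. The log2 fold change was above 0 for 26 of the 34, against 49.8% of all genes, with a median of 0.16, which was 0.06 without the shallow LGR replicate 4 of 3 weeks. GRIN3B, higher in the pituitary than in the hypothalamus, had the lowest p, with a log2 fold change of -0.59 (SE 0.15, edgeR adjusted p = 0.14). It ran from 3.73 to 8.2 CPM with a median of 5.58 CPM at 3 weeks and from 2.96 to 4.29 CPM with a median of 3.48 CPM at 6 weeks. All but 1 of the 3-week libraries lay above the highest 6-week library. GLRA4 had 1.11 (SE 0.48) and GRIA2 0.15 (SE 0.09), with the limit on GLRA4 given above.

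The age difference did not pass the test of a difference between tissues for any of the 40 genes, where 0.00618% of all genes did. At an unadjusted p under 0.05, 5 of 40 were found, against 6.07% of all genes. That count was 9 without the shallow pituitary library and 3 and 2 without HGR replicate 4 and LGR replicate 2 of the 3-week pituitary. GLRA4, with few reads in the pituitary, had the lowest p, with an interaction of 1.52 (SE 0.44, edgeR adjusted p = 0.342), and GABRB4 and GABRA3 followed with -0.65 and -0.36. DESeq2 and limma called none. All 11 GABA-A genes were below 0 in this interaction, with a median of -0.28 and 3 at an unadjusted p under 0.05. Of the whole set, 23 of 40 genes were below 0, and the median over all genes tested was -0.0009.

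The growth rate groups of the hypothalamus were compared within each age. At 3 weeks none of the 40 genes was called by edgeR, DESeq2 or limma, and edgeR called 0% of all genes. The log2 fold change of LGR over HGR was below 0 for 31 of 40 and above 0 for 9, where 50.3% of all genes lay above 0, with a median of -0.22 (-0.12 without HGR replicate 4) against 0.00 over all genes, and 5 were lower in LGR birds at an unadjusted p under 0.05, against 2.24% of all genes. That count was 2 without HGR replicate 4, 14 without HGR replicate 1 and 8 without LGR replicate 4. GABBR2 held 49.6, 57.4, 61.3 and 73.4 CPM in HGR and 44.6, 45.3, 48.4 and 49.8 CPM in LGR birds, which met only at 1 value each (log2 fold change -0.36, SE 0.12, edgeR adjusted p = 0.782). GRM3 had -0.34 (SE 0.11) at this age, with the values given above.

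At 6 weeks none of the 40 was called either, by edgeR, DESeq2 or limma, and edgeR called 0.134% of all genes. The median was 0.02 against 0.01 over all genes, and 7 were higher and 6 lower in LGR birds at an unadjusted p under 0.05, against 9.46% and 9.11% of all genes. That count of 13 was 8 without LGR replicate 4 and 4 in 1 fit over the 16 hypothalamus libraries. GRIA1 had 0.17 (SE 0.05, edgeR adjusted p = 0.109), with 125 to 129 CPM in HGR and 135 to 152 CPM in LGR birds and no overlap.

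GRM2 had the largest log2 fold change at both ages, and it rested on few birds. At 3 weeks it held 1.22, 2.19, 4.01 and 11.5 CPM in HGR and 0.90, 1.12, 1.46 and 1.96 CPM in LGR birds. At 6 weeks it held 1.56, 3.60, 11.3 and 22.4 CPM in HGR and 0.87, 1.76, 2.85 and 2.89 CPM in LGR birds. The high values came from HGR replicate 4 at 3 weeks and from HGR replicates 3 and 4 at 6 weeks, which are different birds at the 2 ages. The study listed GRM2 among genes of higher hypothalamus expression in HGR birds at 6 weeks. It had excluded libraries of both ages after clustering, before its comparison of growth rates, so the sets of samples differ. The study also used DESeq2, and at both ages it reported far more genes between growth rates than edgeR called here. A 6-week comparison without its excluded libraries was not run. With all libraries, the log2 fold change of LGR over HGR in GRM2 was -1.81 (SE 0.63, edgeR adjusted p = 0.782) at 3 weeks and -0.86 without HGR replicate 4. At 6 weeks it was -2.22 (SE 0.73, edgeR adjusted p = 0.161) and -1.39 without HGR replicate 4.

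The same libraries were high for some other members and for another cell type list. GABRR1 was highest in HGR replicate 4 at both ages, with 3.54 CPM at 3 weeks and 5.26 CPM at 6 weeks, and GRIN2A likewise, with 10.8 and 14.9 CPM. GABRR1 and GRIN2A were outside the rule of the 3 lowest p and were shown for their values in these libraries. HGR replicate 4 of 3 weeks held the highest hypothalamus value of 5 of the 40 genes and the lowest of 2. For HGR replicate 4 of 6 weeks these counts were 8 and 1. Other libraries had like or larger counts. LGR replicate 3 of 6 weeks held the highest value of 6 genes, and LGR replicates 1 and 4 of 3 weeks held the lowest of 12 and 11. Such counts were not computed over all genes. The summed level of 7 markers of the thalamus and neighbouring diencephalon was also highest in HGR replicate 4, at 500 CPM at 3 weeks and 631 CPM at 6 weeks. In the other libraries it was 277 to 317 CPM in HGR and 236 to 319 CPM in LGR birds at 3 weeks, and 368 to 450 CPM in HGR and 269 to 303 CPM in LGR birds at 6 weeks. Most of that sum was SLC17A6, a vesicular glutamate transporter found in many neurons and also on the list of transmitter genes. Without it, a choice made after the values were seen, HGR replicate 4 was still highest at both ages, at 217 and 291 CPM. The other HGR birds then had 83.6 to 102 CPM at 3 weeks and 98.0 to 203 CPM at 6 weeks, and LGR birds 60.2 to 109 CPM and 74.9 to 87.7 CPM, so that the 6-week groups did not overlap.

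The summed hypothalamus markers were 281 to 486 CPM in HGR and 580 to 845 CPM in LGR birds at 3 weeks, with no overlap, and 206 to 391 CPM and 340 to 516 CPM at 6 weeks, lowest in HGR replicate 4 at both ages. POMC, a gene far higher in the pituitary, carried part of this sum. Without POMC, likewise chosen after the values were seen, the 3-week groups overlapped, with 258 to 373 CPM in HGR and 254 to 577 CPM in LGR birds, and HGR replicate 4 was not the lowest of that age. The 6-week groups then had 194 to 297 CPM and 314 to 368 CPM, with no overlap. Summed anterior pituitary markers in the 3-week hypothalamus were 56.8 to 241 CPM in HGR and 157 to 643 CPM in LGR birds. The summed neuron markers were 5662 to 6825 CPM in HGR and 4241 to 5070 CPM in LGR birds at 6 weeks, again with no overlap. Other cell lists differed as well at that age, with summed lymphocyte genes at 39.9 to 44.7 CPM in HGR and 53.2 to 129 CPM in LGR birds and microglia genes at 210 to 236 CPM and 234 to 509 CPM. The part of the dissected tissue and of these cell types in the receptor values was not tested. Several of these genes are also genes that the study named from these birds, so their values here are not independent of that choice. They include GRM2 itself, GBX2 and TCF7L2 of the thalamus list, and POMC, NPY, PMCH, NKX2-1, SIM1 and OTP of the hypothalamus list. CGA of the anterior pituitary list and C1QA, C1QB and C1QC of the microglia list were named as well. So was every gene of the lymphocyte list, CD3E, PTPRC, LCK and BLNK.

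**Figure D4:**
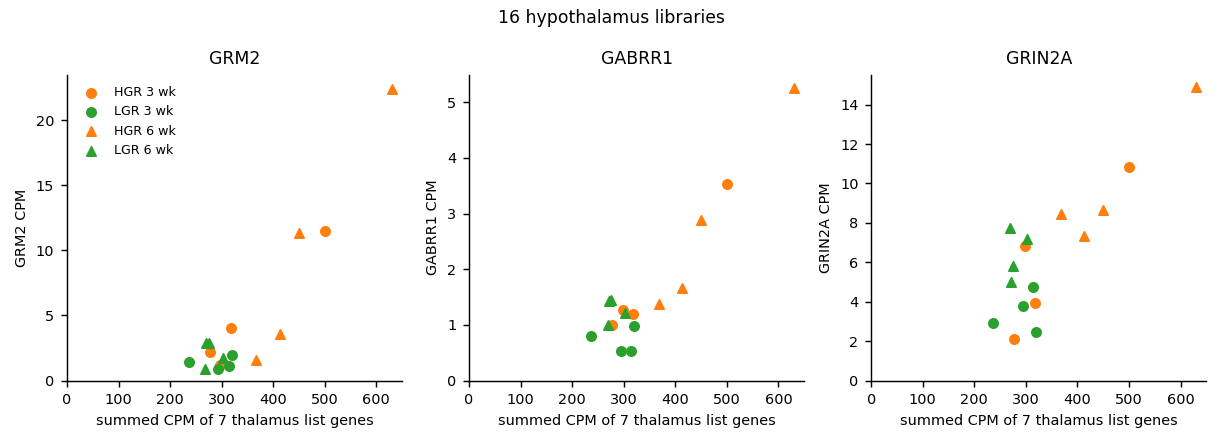
CPM of GRM2, GABRR1 and GRIN2A against the summed CPM of 7 thalamus list genes in the 16 hypothalamus libraries (points, 1 per bird), with colour for growth rate and shape for age. The highest points of GRM2, GABRR1 and GRIN2A are the HGR birds with sums of 500 and 631 CPM. GABRR1 and GRIN2A were shown for their values in these libraries.

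In the pituitary no receptor gene was called between growth rate groups at either age by edgeR, DESeq2 or limma, and edgeR called 0% of all genes at both. At 3 weeks 0 of 32 genes tested had an unadjusted p under 0.05 with edgeR, against 2.62% of all genes, and 2 with limma, and the lowest p was that of GRIN3B, with a log2 fold change of LGR over HGR of 0.37 (SE 0.24). GRM4 followed with -0.68 (SE 0.47) and GRIN3A with 0.16 (SE 0.15, 0.07 without LGR replicate 1). The fold change of GRIN3B was 0.23 without the shallow LGR replicate 4 and that of GRM4 -0.32 without HGR replicate 3. At 6 weeks 1 of 33 genes tested had an unadjusted p under 0.05, against 6.77% of all genes.

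That gene was GRIN2C, with 4.80, 5.53, 6.37 and 13.3 CPM in HGR and 1.87, 3.29, 3.46 and 4.87 CPM in LGR birds. The ranges met only at their edges. The log2 fold change of LGR over HGR was -1.14 (SE 0.38, edgeR adjusted p = 0.666) and -0.72 without HGR replicate 2. GRIK3 and GRM7 followed with 0.49 (SE 0.22) and -0.25 (SE 0.16), the latter -0.13 without HGR replicate 2. The interaction of age and growth rate in the pituitary gave 0 calls over the 34 genes tested by edgeR, DESeq2 or limma, 0 genes at an unadjusted p under 0.05 with edgeR, against 4.48% of all genes, 1 with limma, and lowest p values for GLRA3 (-0.92, SE 0.49), GRIN3A (-0.26, SE 0.19) and GABRB4 (-0.73, SE 0.58). The value of GRIN3A was -0.16 without LGR replicate 1 of 3 weeks and that of GABRB4 -0.40 without LGR replicate 2 of 3 weeks.

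Spread between birds of a group differed by tissue. In the hypothalamus the median within-group SD of the 40 genes was 0.19 on the log2 scale, against 0.20 over all genes with at least 1 CPM. GRM2 had the largest of the 40, 1.15, at percentile 98.8 of all such genes. In the pituitary the median SD was 0.51 over the 31 genes with at least 1 CPM, against 0.32 over all genes, and 26 of the 31 lay above that median. The pituitary SDs include the shallow LGR replicate 4 of 3 weeks. Genes were not matched for level in this comparison, and at low counts, such as those of GRIN2A, counting noise adds to the SD.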

How the data were processed

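Single-end reads of 32 libraries, from the hypothalamus and pituitary of 16 birds, were processed by the authors with CASAVA 1.8.2, FastQC, RSEM and Bowtie2 per the labels, and deposited as raw counts for each Ensembl gene, whole numbers that were not normalized. Their deposited result tables (DESeq2 mean, fold change and p) were used for symbols and coordinates only. Those tables name no genome build. Count columns left unused numbered 0.

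Members and lists were chosen with earlier results of these data known. The counts were fitted with edgeR 4.0.16 under R 4.3.3 and the data.table package (1.17.8) (TMM, minimum count 10, minimum total 15, quasi-likelihood test, Benjamini-Hochberg over all genes tested). Tissue and its interaction with age used all 32 libraries, age and its interaction with growth rate the 16 of a tissue, and growth rate the 8 of a tissue and age. The bird was not a block in the main tests, so paired tissues were treated as independent libraries. A call required an adjusted p no higher than 0.05 together with a 1.5-fold or greater difference. Each SE was back-calculated as the absolute log2 fold change divided by the square root of the F statistic of the test. It was not estimated separately, and at low counts it may be too small. The log2 CPM behind the SDs within groups and the correlations of deviations used a prior count of 2. The log2 fold changes came from the fits and did not use that prior. Called members were named, with library values for up to 6 in each direction, and otherwise the 3 with the lowest p. The share of the rule on the highest members was not applied, because levels of genes were not divided by length. Some genes are counted in the totals but not reported here by name. Receptor genes without a symbol in the tables were not analysed here.

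Precision is limited by 4 birds per group and by depth, 6231478 to 18256297 counts per library. Libraries of 1 group differed by more than counting noise (chi-square per gene of 8.14 or more). The bird number in the labels pairs the tissues: deviations from the group means correlated at 0.109 to 0.48 over the 16 birds. Same-numbered HGR and LGR birds are different animals (-0.189 to 0.162). DESeq2 1.42.0, limma 3.58.1, other scalings, no filter, replicate blocks, other sets of libraries and leaving out each library were alternatives. The fits were first tested on simulated counts.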

Additional observations from a re-analysis of the deposited data

Results flagged for a closer look

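Within the groups of 4 birds, 1 library lay far from the other 3 in 4 of the 118 groups examined for the named genes, a rule by which chance marks about 1 group in 20. The flags were thus no more frequent than chance alone would give. GABRA5 was 40.6 CPM in the hypothalamus of HGR replicate 4 at 6 weeks, where the other 3 birds lay at 32.05 to 33.3 CPM. In the pituitary of LGR replicate 1 at 6 weeks GABRA5 was 0.878 CPM against 0.196 to 0.214 CPM in the other 3. In the same library GRIN1 was 13.6 CPM against 1.93 to 2.28 CPM. GRIN1 was also 8.84 CPM in the pituitary of HGR replicate 4 at 6 weeks, against 3.05 to 3.65 CPM. The LGR library had the highest pituitary value of 10 of the 40 genes, a share not computed over all genes. Several cell lists stood out in it: the pituicyte genes NKX2-1 and LHX2 summed to 10.65 CPM against 0.527 to 1.3 CPM in the other 3 birds of its group, the erythrocyte gene HBAD was 351.8 CPM against 13.35 to 68.71 CPM, and the summed microglia and astrocyte genes were 224.3 and 107.7 CPM against at most 167.1 and 76.93 CPM. Other lists were not highest in that library. Oligodendrocyte genes summed to 153.9 CPM, against 231.2 CPM in replicate 3 of its group. Lymphocyte genes summed to 165.6 CPM and cerebellum or telencephalon genes to 28.21 CPM, against 168.2 and 32.39 CPM in replicate 2. Both pituicyte list genes had higher means in the hypothalamus than in the pituitary, 21.2 against 1.57 CPM for NKX2-1 and 8.99 against 2.46 CPM for LHX2. NKX2-1 is on the hypothalamus list too. Without POMC, that list summed to 91.48 CPM in this LGR library, against 33.85 to 61.48 CPM in the other 3 birds. The summed neuron markers of the same library, at 930 CPM, lay within the pituitary range of 758 to 1112 CPM. In the HGR library of 6 weeks the pituicyte genes were at 8.17 CPM, and replicate 3 of that group, where GRIN1 did not stand apart, had 14.57 CPM. The part of these cell types, or of hypothalamus tissue, in the values was not tested.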

How the results depend on the processing

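The number of receptor genes called between the tissues was 36 and stayed at 36 to 37 with DESeq2, limma, other scalings, no filter on low counts and the bird as a replicate block (37), and at 36 to 38 when 1 library was left out. It was 40 with the adjusted p alone. GABRG1 was the gene gained with DESeq2, RLE scaling and the bird block, and GRIN2C, higher, with upper-quartile scaling, which moved the median of all genes from 0.05 to 0.16 on the log2 scale. Between ages in the hypothalamus the count was 0 and became 2 with DESeq2 (GABRB2 and GRIN2A), 2 with the adjusted p alone (GABRA4 among them) and 1 (GABRR1) without HGR replicate 4 of 3 weeks and HGR replicate 1 and LGR replicates 1 and 3 of 6 weeks, libraries that may be missing from the authors' own age comparison. Leaving out 1 library gave 0 to 3 calls, 3 (GABRB2, GABRR1 and GRIN2A) without HGR replicate 4 of 3 weeks and 1 without LGR replicate 3 of 3 weeks. Calls over all genes rose in those fits too, to 354 and 150, against 96 with all libraries. In the other comparisons the count was 0 under every alternative run. Same-numbered birds of different groups are not paired by the labels, and with their number as a replicate block the count also stayed 0. No named log2 fold change turned its sign under any alternative run. Depth limits GLRA1, GLRA2, GABRR1 and GRM2 in the pituitary, with 17, 48, 18 and 23 reads over 16 libraries. Reads were also few there for GABRR2, GABRA5, GABRD, GLRA3 and GLRA4, at 84, 93, 164, 166 and 166.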
